A study of Homo sapiens with 6 samples.

Results

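Integrins and laminins are the main adhesion receptors and adhesive matrix proteins at the contact between a cell and its basement membrane. The 38 genes described here are every row of the count table with a symbol of an integrin alpha chain (18 genes), an integrin beta chain (8 genes) or a laminin alpha, beta or gamma chain (5, 4 and 3 genes), out of 56832 symbols in all. They were measured by poly(A)-selected RNA sequencing in HEK293T, a transformed cell line from human embryonic kidney that grows attached to the dish and makes SV40 large T antigen. By the labels, 3 libraries came from cells with a knockout of SMARCA3, the chromatin ATPase and ubiquitin ligase encoded by HLTF, and 3 libraries were from wild-type cells of the same line. Both groups were grown in the same medium, and no further treatment is given. How the knockout was made, and whether it is 1 clone or several, is not given in the sources used here. The labels also do not say whether replicates were separate cultures, so any p-value here reflects library-to-library spread alone, which may be technical.

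An integrin is a pair of 1 alpha and 1 beta chain that spans the membrane and ties extracellular ligands to the actin or keratin cytoskeleton. The alpha chain largely sets the ligand, which may be laminin, collagen, proteins with the Arg-Gly-Asp motif such as fibronectin and vitronectin, or counter-receptors on other cells. Laminins are cross-shaped trimers of an alpha, a beta and a gamma chain, secreted mainly as assembled trimers, and they polymerise into the first sheet of a basement membrane. In the embryonic kidney, ITGA8 with ITGB1 is needed for growth of the ureteric bud, and laminins and their receptors organise the tubule epithelium.

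Total counts were 33125811 to 36804337 in the knockout libraries and 38199454 to 41593655 in the wild-type libraries, of which the 38 genes took 24114 to 26285 and 30010 to 34764 counts. The floor, taken as 3 counts per library, was 0.0815 to 0.0909 CPM (counts per 1000000 counts of the tested genes, scaled by TMM) in knockout libraries and 0.0723 to 0.0787 CPM in wild-type libraries. HLTF mRNA measured 141, 140 and 149 CPM in the knockout libraries, against 215, 191 and 195 CPM in the wild-type libraries. The knockout libraries were all lower (log2 fold change -0.48, SE 0.05, edgeR adjusted p = 4.65e-05), beside a median of -0.50 over the nearest expressed genes. Permuting the libraries exactly gave a two-sided p of 0.1, and 3 against 3 libraries can give none smaller. A count over the whole gene does not show whether its coding sequence is disrupted. Of 9 markers of kidney or simple epithelium, PAX8 and KRT19 were at or near 0 CPM in both groups. The markers summed to 37.5 to 39.2 CPM in knockout libraries and 55.0 to 61.3 CPM in wild-type libraries, with KRT18 at 13.8 CPM in the knockout and 30.7 CPM in wild-type on average. They did not all move together, though every tested marker other than PAX2 and LHX1 was called lower. PAX2, a transcription factor of kidney development, averaged 10.8 CPM in the knockout and 4.52 CPM in wild-type (edgeR adjusted p = 7.24e-06), and LHX1 was not called. The 6 leukocyte markers summed to 3.00 to 3.72 CPM in knockout libraries and 2.53 to 3.70 CPM in wild-type libraries, with CD3E at 0 and PTPRC near 0. The 5 endothelial markers summed to at most 0.818 CPM and the 4 muscle markers to at most 0.616 CPM in every library. The 6 fibroblast or mesenchymal markers summed to 123 to 125 CPM in knockout and 184 to 197 CPM in wild-type libraries, nearly all of it VIM, with COL1A2 near 0. The 5 neuronal markers summed to 123 to 128 CPM in knockout and 160 to 166 CPM in wild-type libraries. NEFM accounted for nearly all of this difference, at 0.0501 CPM in the knockout and 34.8 CPM in wild-type on average. NEFL, the most abundant of them, averaged 67.7 CPM in the knockout and 73.4 CPM in wild-type and was not called. INA, TUBB3 and SNAP25 were not called either. The part of all these marker genes in the results on adhesion genes was not tested.

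More of the adhesion genes fell than rose in the knockout, and the laminin alpha chains held both the largest fall and the largest rise. Of the 38 genes, 28 passed the filter on low counts and were tested, and 11 of these fell, 2 rose and 15 were not called at an adjusted p of 0.05 (edgeR quasi-likelihood test, Benjamini-Hochberg over all 18061 tested genes). Among all tested genes 17.7% were called lower, 14% higher and 31.8% in either direction, beside 39.3% lower and 7.14% higher among the tested members. The median log2 fold change was -0.17 over the 28 members and 0.0031 over all tested genes. The CPM ranges of the groups did not overlap in 16 of the 28 members, and in 45.6% of all tested genes. Fewer cells of a type and less RNA per cell cannot be told apart in such bulk libraries.

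**Figure D1:**
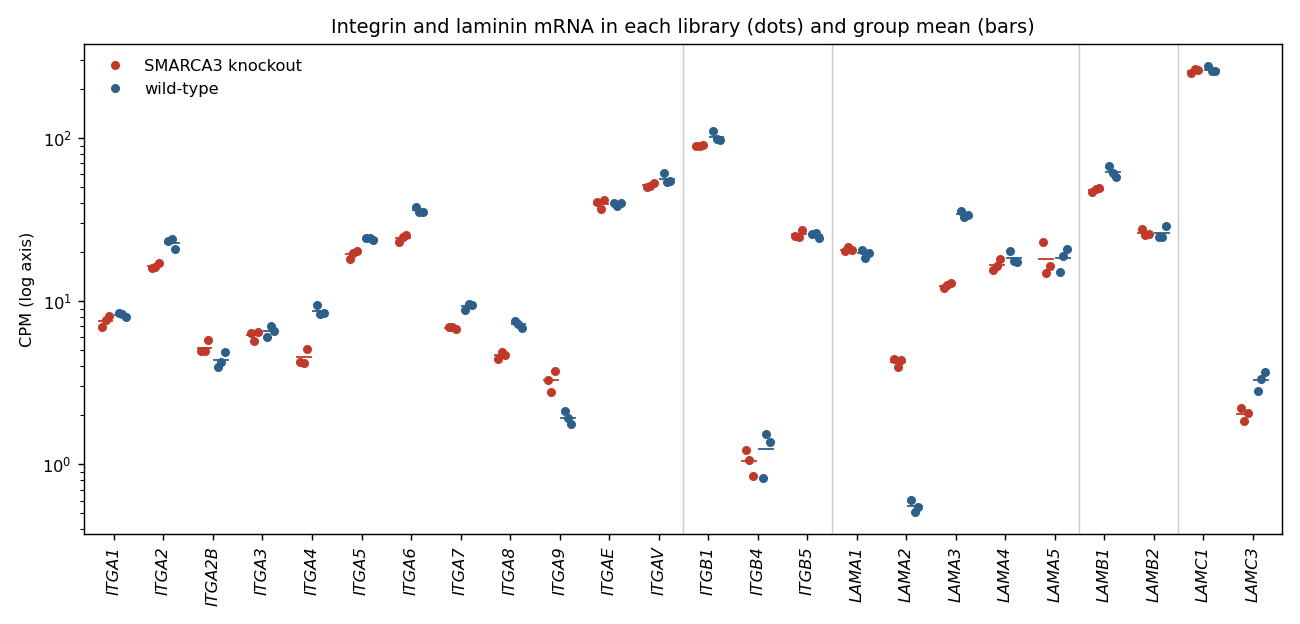
CPM on a log axis (vertical) of members with a mean of at least 1 CPM in either group (horizontal, by chain class). Red dots are the 3 knockout libraries, blue dots the 3 wild-type libraries and short lines the group means. LAMA3 lies near 12.5 CPM in the knockout and 34.2 CPM in wild-type, LAMA2 near 4.23 and 0.555 CPM.

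The largest changes were in the laminin alpha chains, which carry the receptor-binding globular domains. LAMA3, the alpha chain of the laminin that anchors the epidermis, measured 12.1, 12.5 and 12.8 CPM in knockout replicates 1 to 3, against 35.8, 33.02 and 33.8 CPM in wild-type replicates 1 to 3. All knockout libraries were far below all wild-type libraries. The fall (log2 fold change -1.46, SE 0.06, edgeR adjusted p = 5.93e-08) left 36.4% of the wild-type level. The gene lies on chromosome 18 between 23689443 and 23956222 on the plus strand (hg38). LAMA2, the alpha chain of the laminin that surrounds muscle fibres and Schwann cells, moved the other way. It measured 4.43, 3.94 and 4.33 CPM in the knockout libraries, against 0.602, 0.513 and 0.551 CPM in the wild-type libraries. The ranges lie far apart, and the rise was 7.56-fold (log2 fold change 2.92, SE 0.15, edgeR adjusted p = 1.77e-07). LAMA2 lies on chromosome 6 between 128883141 and 129516569 on the plus strand.

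The other laminin alpha chains were not called. LAMA1, the chain of early embryonic basement membranes, averaged 20.7 ± 0.561 CPM in the knockout and 19.7 ± 1.13 CPM in wild-type (SD, n = 3 per group), with an estimated log2 change of 0.08 (SE 0.07). LAMA4, found around vessels and mesenchymal cells, averaged 16.6 ± 1.31 CPM in the knockout and 18.5 ± 1.57 CPM in wild-type, a log2 fold change of -0.16 (SE 0.08). LAMA5, the broadly expressed chain of mature epithelia, was the least repeatable of the members above 10 CPM. It measured 23.2, 14.9 and 16.4 CPM in the knockout libraries and 15.1, 18.9 and 20.9 CPM in the wild-type libraries. The ranges overlapped widely, and its log2 fold change was -0.01 with an SE of 0.16, or -0.215 without knockout replicate 1, where it was not called either (edgeR adjusted p = 0.231).

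The start regions of LAMA3, LAMA2 and ITGA4 are shown because LAMA3 and LAMA2 had the largest fall and rise among members above 1 CPM and ITGA4 the largest fall among such integrins. Sequences are from RefSeq (GRCh38.p14), 250 bases before to 50 after an annotated start, read 5′ to 3′ on the gene's strand. Capitals mark matches, on either strand, to the GC box GGGCGG, the AP-1 motif TGANTCA or the TATA motif TATAAA, which share no letters with each other in these windows. The windows are chr18:23872770-23873069 for LAMA3, chr6:128882888-128883187 for LAMA2 and chr2:181457136-181457435 for ITGA4, all on the plus strand.
LAMA3: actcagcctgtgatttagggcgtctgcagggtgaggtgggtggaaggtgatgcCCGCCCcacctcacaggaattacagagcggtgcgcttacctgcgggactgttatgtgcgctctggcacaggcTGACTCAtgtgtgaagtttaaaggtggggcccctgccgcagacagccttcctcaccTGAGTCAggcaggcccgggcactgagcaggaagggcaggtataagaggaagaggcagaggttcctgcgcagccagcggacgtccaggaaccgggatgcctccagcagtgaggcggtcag
LAMA2: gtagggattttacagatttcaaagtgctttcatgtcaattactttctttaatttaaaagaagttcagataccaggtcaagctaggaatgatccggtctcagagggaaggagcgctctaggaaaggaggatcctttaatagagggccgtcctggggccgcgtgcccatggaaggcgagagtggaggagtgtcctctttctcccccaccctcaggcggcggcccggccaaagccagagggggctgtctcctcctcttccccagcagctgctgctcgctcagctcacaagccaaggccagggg
ITGA4: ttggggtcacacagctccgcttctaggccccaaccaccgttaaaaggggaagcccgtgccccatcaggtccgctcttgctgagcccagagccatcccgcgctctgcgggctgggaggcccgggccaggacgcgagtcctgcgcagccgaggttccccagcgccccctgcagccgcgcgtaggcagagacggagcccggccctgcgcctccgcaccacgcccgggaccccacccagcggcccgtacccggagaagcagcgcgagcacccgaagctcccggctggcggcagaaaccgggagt

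The LAMA3 window held 1 GC box and 2 AP-1 matches, while the LAMA2 and ITGA4 windows held none of the 3 motifs. Of 35116 RefSeq windows of the same length, 45.0% held a GC box, 7.7% an AP-1 match and 11.5% a TATA match. RefSeq had 33 such windows for 26 of the 38 members, of which 19 held a GC box (57.6%), 3 an AP-1 match (9.1%) and 2 a TATA match (6.1%). The LAMA3 window begins 183.3 kb into the annotated gene, at the start of a shorter transcript form, and GENCODE lists 15 distinct transcript starts for this gene. Counts per gene do not show which start was used. These matches describe the letters only, and binding was not measured.

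Among the laminin beta chains LAMB1 fell and its paralog LAMB2 was not called. LAMB1, the partner of most embryonic laminins, measured 46.5, 48.9 and 49.5 CPM in the knockout libraries, against 67.6, 61.2 and 58.0 CPM in the wild-type libraries. The groups did not overlap (log2 fold change -0.37, SE 0.06, edgeR adjusted p = 0.00118). LAMB2, which takes its place at the glomerulus and the synapse, averaged 26.4 ± 1.31 CPM in the knockout and 26.2 ± 2.42 CPM in wild-type (SD, n = 3 per group), with a log2 fold change of 0.01 (SE 0.08). LAMB3 and LAMB4 had too few counts to test, 9 and 19 over the knockout libraries and 20 and 17 over the wild-type libraries.

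LAMC1, the gamma chain of nearly all laminins, was the most abundant member and was not called. It measured 252, 265 and 260 CPM in the knockout libraries and 276, 257 and 256 CPM in the wild-type libraries, ranges that overlap, with a log2 fold change of -0.02 (SE 0.04). LAMC3, a gamma chain of the nervous system and retina, fell. It measured 2.21, 1.85 and 2.06 CPM in the knockout libraries, against 2.80, 3.34 and 3.67 CPM in the wild-type libraries, without overlap (log2 fold change -0.68, SE 0.14, edgeR adjusted p = 0.0043).

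To set levels of different chains side by side, CPM was divided by merged exon length, and the order of chains close in level depended on the length used. On this scale the 5 laminin alpha chains together had 5.03 to 5.49 CPM per kb in knockout libraries and 6.32 to 6.61 CPM per kb in wild-type libraries. LAMA3 was the leading alpha chain in wild-type cells. Its share of the summed alpha level per kb was 16.1% ± 1.04 in the knockout and 35.9% ± 0.968 in wild-type (SD, n = 3 per group). The share of LAMA2 was 7.75% ± 0.177 in the knockout and 0.824% ± 0.0494 in wild-type. In level, LAMA3 differed by -1.48 CPM per kb between the group means (knockout minus wild-type) and LAMA2 by 0.355 CPM per kb. LAMA4 led in the knockout with 27.3% ± 2.63, against 24.6% ± 1.81 in wild-type, but its share, that of LAMA1 at 24.8% ± 1.76 and that of LAMA5 at 24.0% ± 4.85 lay within their spread in the knockout. LAMB1 made up 60.4% ± 1.91 of the beta level in the knockout and 66.4% ± 3.59 in wild-type, and LAMB2 nearly all of the rest. LAMC1 made up 98.4% ± 0.204 of the gamma level in the knockout and 97.7% ± 0.112 in wild-type. LAMB3, the usual beta partner of LAMA3, was low beside it, at 0.0183 ± 0.00514 CPM per kb in the knockout and 0.0367 ± 0.0257 CPM per kb in wild-type (SD, n = 3 per group). No test was made of shares or summed levels.

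**Figure D2:**
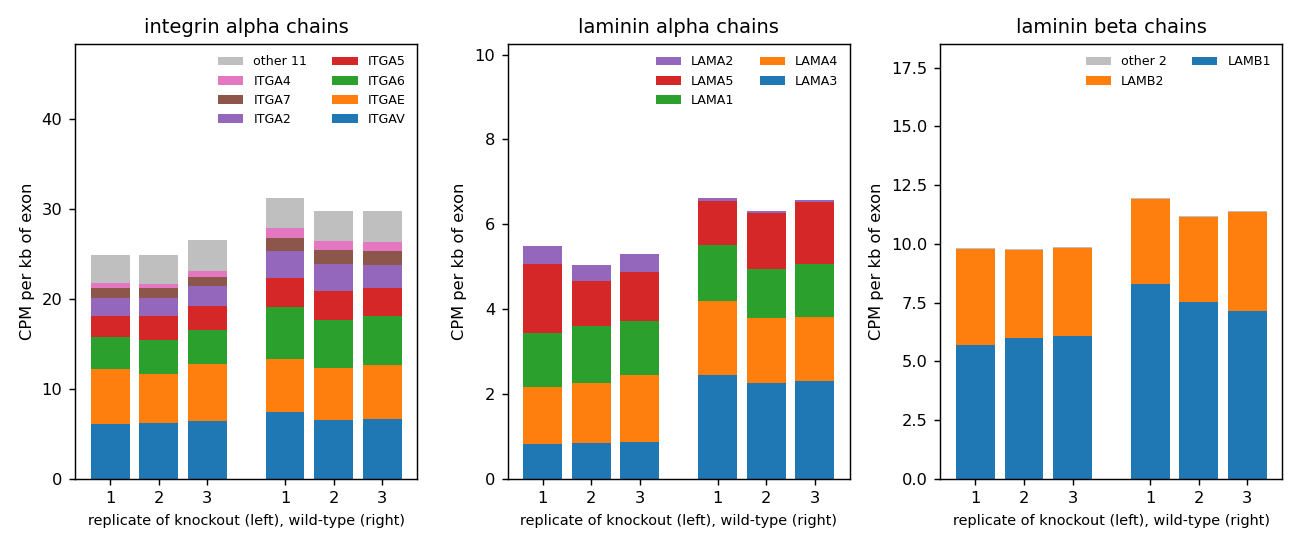
CPM per kb of merged exon (vertical, from 0) in each library, the 3 knockout libraries left of the 3 wild-type libraries, stacked by chain for integrin alpha, laminin alpha and laminin beta genes. The LAMA3 segment at the base of the middle panel is about 0.849 CPM per kb high in the knockout and 2.33 in wild-type, and the LAMA2 segment at its top is 0.409 and 0.0536.

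Among the integrin alpha chains that bind laminin, ITGA6 and ITGA7 fell and ITGA3 was not called. ITGA6, which pairs with ITGB1 or, in hemidesmosomes, with ITGB4, measured 23.0, 24.6 and 25.4 CPM in the knockout libraries, against 37.9, 35.2 and 35.4 CPM in the wild-type libraries. The groups were well separated (log2 fold change -0.57, SE 0.06, edgeR adjusted p = 4.63e-05). ITGA7, the laminin receptor of muscle, measured 6.96, 6.93 and 6.76 CPM in the knockout libraries, against 8.87, 9.55 and 9.44 CPM in the wild-type libraries. Every knockout library was below every wild-type library (log2 fold change -0.43, SE 0.08, edgeR adjusted p = 0.0018). ITGA3, the laminin receptor of kidney and lung epithelium, averaged 6.19 ± 0.423 CPM in the knockout and 6.57 ± 0.505 CPM in wild-type (SD, n = 3 per group) and was not called, its log2 fold change being -0.09 (SE 0.10).

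Of the collagen-binding chains, ITGA2, a receptor of epithelial cells and platelets, fell. It measured 16.05, 16.2 and 17.03 CPM in the knockout libraries, against 23.5, 24.2 and 20.8 CPM in the wild-type libraries, without overlap (log2 fold change -0.48, SE 0.07, edgeR adjusted p = 0.000626). Its chromosomal neighbour ITGA1, a receptor for basement membrane collagen that ends 30.1 kb before ITGA2 begins, averaged 7.55 ± 0.572 CPM in the knockout and 8.28 ± 0.234 CPM in wild-type (SD, n = 3 per group) and was not called (log2 fold change -0.13, SE 0.09). The difference between these neighbours was not tested. ITGA10, a cartilage chain, averaged 0.325 ± 0.0875 CPM in the knockout and 0.547 ± 0.0962 CPM in wild-type (log2 fold change -0.74, SE 0.29, edgeR adjusted p = 0.0732), and ITGA11 was too low to test.

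Among the chains that recognise Arg-Gly-Asp ligands, ITGA5 and ITGA8 fell. ITGA5, the principal fibronectin receptor chain, measured 18.2, 19.8 and 20.2 CPM in the knockout libraries, against 24.5, 24.3 and 23.7 CPM in the wild-type libraries. The gap between the groups was small but the libraries of each agreed closely (log2 fold change -0.32, SE 0.06, edgeR adjusted p = 0.00326). ITGA8, the nephronectin receptor chain of kidney mesenchyme, measured 4.43, 4.86 and 4.67 CPM in the knockout libraries, against 7.54, 7.24 and 6.84 CPM in the wild-type libraries (log2 fold change -0.63, SE 0.09, edgeR adjusted p = 0.000385). The ranges were apart, but ITGA8 stood among genes that were all lower, as given below for position. ITGAV, which pairs with several beta chains to bind vitronectin and latent TGF-beta, averaged 51.3 ± 1.64 CPM in the knockout and 56.3 ± 3.83 CPM in wild-type (SD, n = 3 per group) and was not called (edgeR adjusted p = 0.104). ITGA2B, the platelet fibrinogen receptor chain, averaged 5.20 ± 0.484 CPM in the knockout and 4.35 ± 0.457 CPM in wild-type, with an adjusted p of 0.115 in edgeR, which became 0.04999 without wild-type replicate 3.

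The paralogs ITGA4 and ITGA9, which share ligands such as VCAM1 and osteopontin, moved in opposite directions. ITGA4, the lymphocyte homing chain, measured 4.25, 4.18 and 5.12 CPM in the knockout libraries, against 9.42, 8.37 and 8.44 CPM in the wild-type libraries. That left 51.6% of the wild-type level (log2 fold change -0.96, SE 0.10, edgeR adjusted p = 5.27e-05), with no overlap. ITGA9, a chain needed for lymphatic valves, measured 3.29, 2.77 and 3.76 CPM in the knockout libraries, against 2.12, 1.92 and 1.76 CPM in the wild-type libraries. All knockout libraries were higher, by 1.68-fold (log2 fold change 0.75, SE 0.15, edgeR adjusted p = 0.0028). Its exons overlap ITGA9-AS1 on the other strand by 535 bases, and the strand setting of the counting is not given.

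Of the chains that pair with ITGB2 or ITGB7 on leukocytes, apart from ITGA4, ITGAE was well expressed and the others had a mean under 1 CPM. ITGAE, the chain of intraepithelial T cells, averaged 39.7 ± 2.70 CPM in the knockout and 39.3 ± 0.831 CPM in wild-type (SD, n = 3 per group) and was not called, its log2 fold change being 0.01 (SE 0.06). HASPIN lies inside ITGAE on the other strand and shares 427 exon bases with it. ITGAD averaged 0.527 ± 0.0656 CPM in the knockout and 0.385 ± 0.198 CPM in wild-type and was not called. ITGAL, ITGAM and ITGAX, partners of ITGB2 in leukocyte adhesion, had 19, 7 and 2 counts over the knockout libraries and 14, 13 and 3 over the wild-type libraries and were not tested.

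On the scale per kb, ITGAV with 24.6% ± 0.312 and ITGAE with 23.4% ± 1.24 led the alpha chains in the knockout and lay within their spread of each other. They were followed by ITGA6 with 14.6% ± 0.504, ITGA5 with 10.1% ± 0.425 and ITGA2 with 8.16% ± 0.0573 (SD, n = 3). In wild-type cells the shares were 22.6% ± 0.939 for ITGAV, 19.5% ± 0.517 for ITGAE, 18.3% ± 0.271 for ITGA6, 10.5% ± 0.212 for ITGA5 and 9.54% ± 0.720 for ITGA2. If the longest transcript was taken as length, ITGAE led in both groups, as given at the end. The summed level of the 18 alpha chains was 24.9 to 26.6 CPM per kb in knockout libraries and 29.8 to 31.2 CPM per kb in wild-type libraries.

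Of the 8 integrin beta chains, ITGB1 was by far the most abundant and fell slightly. ITGB1, the common partner of most alpha chains named above, measured 88.9, 89.0 and 90.8 CPM in the knockout libraries, against 110, 99.3 and 97.3 CPM in the wild-type libraries. The groups did not overlap (log2 fold change -0.19, SE 0.05, edgeR adjusted p = 0.017). The call was lost without knockout replicate 1 (adjusted p = 0.0803 in edgeR), without knockout replicate 2 (adjusted p = 0.0643) and with the median of its neighbours removed (adjusted p = 0.129). ITGB8, a partner of ITGAV in the activation of TGF-beta, fell at a low level. It had 34 counts over the knockout libraries and 90 over the wild-type libraries, or 0.262, 0.217 and 0.515 CPM against 0.892, 0.667 and 0.708 CPM (log2 fold change -1.20, SE 0.31, edgeR adjusted p = 0.0131). The groups did not overlap, but the call was lost without knockout replicate 2 (adjusted p = 0.0626 in edgeR).

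ITGB5, the vitronectin receptor partner of ITGAV, averaged 25.7 ± 1.30 CPM in the knockout and 25.4 ± 0.955 CPM in wild-type (SD, n = 3 per group) and was not called, its log2 fold change being 0.01 (SE 0.06). ITGB4, the hemidesmosome chain, averaged 1.04 ± 0.188 CPM in the knockout and 1.24 ± 0.376 CPM in wild-type and was not called. ITGB2, ITGB3, ITGB6 and ITGB7 were not tested, with 19, 18, 0 and 5 counts over the knockout libraries and 19, 22, 1 and 4 over the wild-type libraries. ITGB3 shares 2266 exon bases with an annotated gene on its own strand, so its count is uncertain. Per kb, ITGB1 made up 77.9% ± 0.582 of the beta level in the knockout and 80.0% ± 1.26 in wild-type, and ITGB5 20.8% ± 0.650 in the knockout and 18.6% ± 0.859 in wild-type.

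The 10 untested members had 0 to 24 counts in any library, and the highest group mean among them was 0.357 CPM. Differences between the groups in these genes were not detectable at this depth. Of all 38 members, 22 share exon bases with another annotated gene, 18 of them with one on the other strand. This holds for 8 of the 13 called members, by at most 535 bases.

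Position on the chromosome was set beside each change, since expressed genes in some regions of these libraries shifted together. For each tested member the median log2 fold change of up to 40 nearest expressed genes was taken. ITGA8, on chromosome 10 between 15513949 and 15720125, equalled its neighbours, with -0.63 on the log2 scale for both the gene and their median, and all 40 neighbours were called lower. Once this regional median was taken off, -0.0038 was left for ITGA8 (adjusted p = 0.978 in edgeR). Each median came from the same libraries and was taken off as a fixed value, so p-values with it removed leave out its own error. For LAMA3 the neighbour median was -0.01 and for LAMA2 -0.05, and each stood beyond all its neighbours, LAMA3 below them and LAMA2 above. ITGA4 (neighbour median -0.13), ITGA6 (-0.11), ITGA2 (-0.13), ITGA7 (-0.09), ITGA5 (-0.09) and LAMB1 (-0.07) remained called with the median removed, as did LAMC3 (0.03). ITGB8 remained called beside -0.16. ITGA9 lay above all its neighbours, whose median was 0.22, with 23 of 40 called higher, and remained called with an adjusted p of 0.0196 in edgeR. ITGA10, not called otherwise, was called lower once its neighbour median of 0.10 was removed (adjusted p = 0.0472 in edgeR). ITGA2B, at 0.26 and not called, lay beside a neighbour median of 0.32, with 32 of 40 neighbours called higher.

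**Figure D3:**
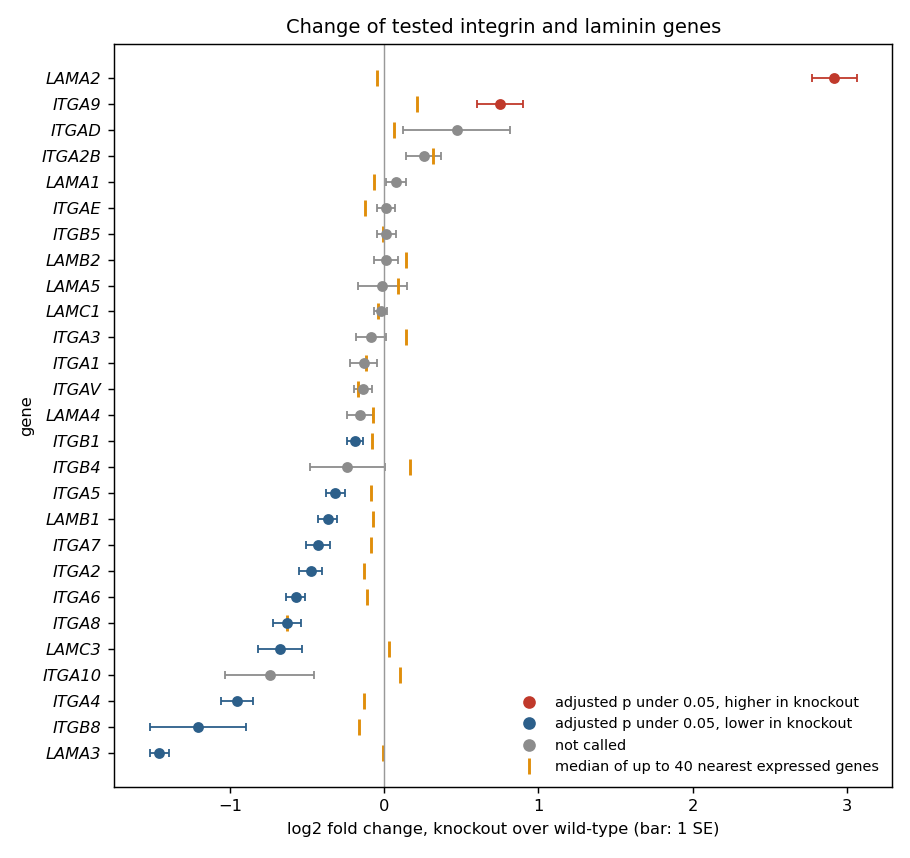
Log2 fold change, knockout over wild-type (horizontal, bars of 1 SE), of tested members (vertical, ordered by size), blue if called lower, red if called higher and grey if not called. Orange ticks are the medians of up to 40 nearest expressed genes. LAMA2 at 2.92 and LAMA3 at -1.46 stand at the ends, while ITGA8 at -0.63 lies on its tick.

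Genes that work with integrins and laminins were followed through 5 lists. The first holds cytoplasmic adaptors and kinases, which link integrin tails to actin. Of 34 tested out of 36, 4 rose, 5 fell and 25 were not called, with a median log2 fold change of 0.02. These are 11.8% higher and 14.7% lower, beside 14% and 17.7% of all tested genes. With a library left out, 3 to 6 were higher and 5 to 7 lower. ILK, the pseudokinase bound to beta tails, averaged 1.37 ± 0.192 CPM in the knockout and 0.674 ± 0.119 CPM in wild-type (SD, n = 3 per group, log2 fold change 1.02), but its exons overlap TAF10 on the other strand by 2374 bases, so its count is uncertain. The kindlin gene FERMT2 rose by 0.19 and the exchange factor ARHGEF7 by 0.21 on the log2 scale, or by 0.127 for ARHGEF7 with its neighbour median removed. The plakin gene DST fell to 91.4 ± 3.83 CPM in the knockout, against 128 ± 6.69 CPM in wild-type. KANK1, which binds talin, and the parvin gene PARVB had log2 fold changes of -0.58 and -0.35, PARVB beside a neighbour median of 0.44, which left -0.79 once removed. All of these had edgeR adjusted p-values of at most 0.00665.

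Of 21 tested integrin ligands outside the laminin and collagen families, out of 31, 3 rose, 7 fell and 11 were not called, with a median of -0.14. TNC, the matrix protein of developing and injured tissue bound by ITGA9, rose to 14.5 ± 0.936 CPM in the knockout, against 3.64 ± 0.132 CPM in wild-type (SD, n = 3 per group, log2 fold change 2.00, edgeR adjusted p = 5.93e-08). FN1, the ligand of ITGA5, rose to 55.0 ± 2.86 CPM in the knockout, against 40.8 ± 2.02 CPM in wild-type, while ITGA5 itself fell. TGFB1 rose by 0.47 on the log2 scale, and LTBP1, which holds latent TGF-beta in the matrix, fell to 14.8 ± 1.05 CPM in the knockout, against 31.5 ± 1.11 CPM in wild-type. NPNT, the nephronectin gene and main kidney ligand of ITGA8, fell to 0.931 ± 0.256 CPM in the knockout, against 4.35 ± 0.566 CPM in wild-type (log2 fold change -2.22). EDIL3, an Arg-Gly-Asp protein of vessels, had a log2 fold change of -1.52.

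Of 23 tested basement membrane genes, out of 28, 3 rose, 8 fell and 12 were not called, with a median of -0.09. SPARC, a collagen-binding protein of basement membranes, rose to 15.3 ± 0.687 CPM in the knockout, against 2.04 ± 0.199 CPM in wild-type (SD, n = 3 per group, log2 fold change 2.91, edgeR adjusted p = 6.62e-09). The fibulin genes FBLN1 and FBLN2 rose by 0.68 and 0.75 on the log2 scale, FBLN1 beside a neighbour median of 0.45, which left 0.23 once removed. COL4A1, a chain of the ubiquitous type of network collagen, fell to 25.5 ± 0.810 CPM in the knockout, against 44.1 ± 2.04 CPM in wild-type. COL4A6 and the hemicentin gene HMCN1 had log2 fold changes of -1.001 and -2.24.

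Of 24 tested laminin receptors outside the integrins and enzymes of the dystroglycan glycan, out of 27, 5 rose, 6 fell and 13 were not called, with a median of 0.07. GYLTL1B, one of the enzymes that build the glycan that binds laminin, fell to 5.10 ± 0.351 CPM in the knockout, against 8.78 ± 0.589 CPM in wild-type (SD, n = 3 per group, log2 fold change -0.78). B4GAT1, which primes that glycan, had a log2 fold change of -0.44 and was also called lower. The utrophin gene UTRN rose by 0.40 on the log2 scale beside a neighbour median of 0.23, with 25 of 40 neighbours called higher, and 0.17 was left once that median was removed. RPSA rose by 0.28 on the log2 scale but is uncertain because it has many processed copies in the genome and was not called with its neighbour median of 0.22 removed (adjusted p = 0.317 in edgeR).

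Of 13 tested membrane partners of integrins, out of 17, 3 fell and the other 10 were not called. The tetraspanin gene CD9 fell to 12.3 ± 1.37 CPM in the knockout, against 29.9 ± 1.02 CPM in wild-type (SD, n = 3 per group, log2 fold change -1.28, edgeR adjusted p = 1.09e-06). The caveolin gene CAV1 had a log2 fold change of -0.62, and CD47, an ITGAV partner and thrombospondin receptor, of -0.18, or -0.28 with its neighbour median removed, a call lost in 7 of 14 alternatives, where the adjusted p reached 0.129 without knockout replicate 1. The share of tested genes called lower was 33.3% among ligands, 34.8% among basement membrane genes, 25% among laminin receptors and 23.1% among membrane partners, beside the 17.7% of all tested genes. The share called higher was 14.3% among ligands, 13% among basement membrane genes and 20.8% among laminin receptors, beside 14% of all tested genes. No membrane partner was called higher in the main edgeR run, though 1 was higher at an unadjusted p under 0.05. DESeq2 and some other edgeR settings called 1.

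**Figure D4:**
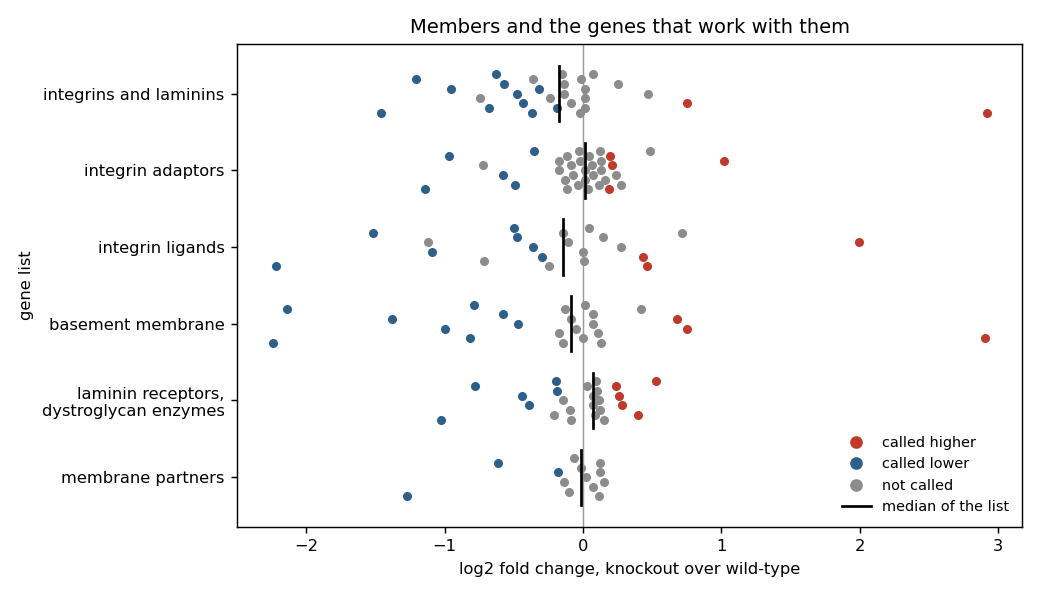
Log2 fold change, knockout over wild-type (horizontal), of the tested genes of each list (vertical), one dot per gene, red if called higher, blue if called lower and grey if not called, with the list median as a black line. The medians run from -0.17 for integrins and laminins to 0.07 for laminin receptors, and SPARC at 2.91 and LAMA2 at 2.92 lie farthest to the right.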

How the data were processed

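RNA of 3 SMARCA3 knockout and 3 wild-type HEK293T libraries was made with a stranded kit and read in pairs, per the labels' protocols. The deposited table holds raw counts by gene symbol, with 1 column of whole numbers per library. Per the submitters' processing notes, the tools were HTSeq 0.9.1, STAR 2.4, Trim Galore, DESeq2 and Picard, in no stated role, and the build was hg38. The sources used here give neither annotation release nor strand setting. The main test was edgeR 4.0.16 under R 4.3.3 (filterByExpr, TMM scaling, quasi-likelihood F test without covariates, two-sided, Benjamini-Hochberg over 18061 genes). CPM divides by the TMM-scaled total of tested genes, and SE values come from the fit. Floors cover counting error only, while SD and SE values include the spread between libraries. The procedure was tested on simulated data. Positions, exon overlaps and merged exon lengths came from GENCODE 29 (GRCh38), matched by symbol for all 38 members and for 29557 of 56832 symbols. Neighbour medians used up to 20 genes on each side with a mean of at least 2 CPM. The members and the gene lists were chosen with earlier results of these data known. Some genes are not reported here singly but stay in the counts, sums and medians. Every other member is accounted for, and from each list up to 3 called genes per direction are named, those with the smallest p among genes of at least 1 CPM that are reported singly. Alternatives were RLE and library-size scaling, other filters, DESeq2 1.42.0, limma-voom (limma 3.58.1), a replicate block, each library left out in turn and removal of the neighbour median. Transcript length in place of exon length was added after seeing the data.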

Additional observations from a re-analysis of the deposited data

How the results depend on the processing

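Of the 13 called members, 10 kept their direction and call in every alternative run, the exceptions being ITGA8, ITGB1 and ITGB8. Members called lower numbered 9 to 12 and members called higher 2 to 3 with a library left out. All genes called numbered 4251 to 6156 with a library left out, against 5737. The highest number came without wild-type replicate 1. Over tested genes, log2 CPM of that library correlated with the other wild-type libraries at 0.9972 and 0.9965, and those with each other at 0.9981. The replicate numbers showed no sign of pairing: same-numbered libraries deviated from their group means with correlations of -0.373, -0.0436 and -0.0882. Libraries of different number gave -0.253 to 0.312. With 3 libraries per group, these values cannot settle whether libraries were prepared in pairs. With the replicate number as a block, 4232 genes were called, 10 members were lower and 2 higher, and ITGB1 was not called (adjusted p = 0.0505, edgeR). With the neighbour median removed, HLTF was not called, with 0.017 left on the log2 scale (adjusted p = 0.828, edgeR), against -0.48. In that run 10 members were lower, of which 9 were lower otherwise. Laminin receptors there had 3 higher and 3 lower of 21 tested, against 5 and 6 of 24, and 3 genes without a position also left the test. Membrane partners called higher numbered 1 with RLE factors, no filter, at least 1 CPM in 3 libraries or DESeq2. They numbered 0 to 2 with a library left out, against 0 in the main edgeR run (1 at an unadjusted p under 0.05). With the longest transcript as length, shares were 20.6% (knockout) and 19.2% (wild-type) for ITGAV, so that ITGAE led with 29.1% and 24.5%, 79.3% and 81.3% for ITGB1, 33.5% in wild-type for LAMA3, 64.1% in the knockout for LAMB1, and 98.1% and 97.3% for LAMC1. Depth leaves the 10 untested members undecided. The cause of these shifts was not tested.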
